A study of Homo sapiens with 6 samples.

Results

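The Rab GTPases are the largest branch of the Ras superfamily of small GTP-binding proteins. The members described here were all protein-coding genes of the count table whose symbol is RAB followed by a number and at most 1 letter. The rule found 62 genes of 30230 genes in the table, of which 17075 are protein-coding. It uses no measured value. RNA was measured in A549 cells, a human lung adenocarcinoma line labelled as non-small cell lung cancer cells, by polyA RNA-seq. The 3 NC libraries came from cells given a control (a scramble siRNA in the study's methods, a control plasmid in the labels), and the 3 siFSCN1 libraries from cells given an siRNA against FSCN1, the gene of fascin, which bundles actin filaments. Both groups are of 1 cell line, and 1 FSCN1 siRNA was used for these libraries, so that effects of the knockdown and of that siRNA cannot be told apart. The comparison asks how the transcripts of the cell's membrane traffic regulators stood after the knockdown.

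Each Rab protein cycles between a GTP-bound form, which sits on a particular membrane and recruits effectors such as tethers and motor adaptors, and a GDP-bound form, which can be taken off the membrane. Exchange factors switch Rabs on, GTPase-activating proteins switch them off, and a geranylgeranyl transferase with its escort proteins adds the lipid anchors that hold them on membranes. Members divide the cell's transport routes among them, and several routes are served by close paralogs.

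The targeted gene was lower in every library labelled siFSCN1. FSCN1 stood at 44.98, 47.24 and 45.99 FPKM (fragments per length of transcript, scaled to the library total) in NC replicates 1, 2 and 3, and at 4.46, 2.82 and 3.19 FPKM in siFSCN1 replicates 1, 2 and 3. Its log2 fold change was -3.89 (SE 0.094, adjusted p = 8.1e-16), which left 6.75% of the NC level. Here and below, fold changes are siFSCN1 against NC, and adjusted p-values are Benjamini-Hochberg values over 17076 genes from edgeR's quasi-likelihood test on counts, with p under 0.05 called a change. Libraries held 27967301 to 36560919 counts. The study calls the libraries of a group biological replicates, and the labels do not say whether they came from separate cultures, so the p-values measure the spread between these libraries.

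The knockdown went with a wide shift of the transcriptome, and the values of the Rab genes are read against it. Of all genes tested, 68.3% passed the threshold, 35.1% higher and 33.2% lower in siFSCN1. The 37 mitochondrially encoded genes took 11.2 to 11.8% of counts in NC and 15.8 to 15.9% in siFSCN1. Summed FPKM of 6 epithelial markers was 3117 to 3498 in NC and 1759 to 2115 in siFSCN1, while the summed leukocyte, endothelial and fibroblast markers stayed under 1 FPKM each in every library, with the leukocyte gene PTPRC at or under 0.01 FPKM. KRT7, KRT8, KRT18 and KRT19 were lower and EPCAM and CDH1 higher in every siFSCN1 library. The part of these shifts in the Rab values was not tested, and in bulk RNA fewer cells of a kind and less RNA per cell cannot be told apart. FPKM is scaled to the library total, whereas the fit scales libraries by TMM (trimmed mean of M-values), which places siFSCN1 lower by 0.19 on the log2 scale. A gene whose FPKM was equal in both groups therefore has a fitted fold change near -0.19.

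Most Rab transcripts passed the test, as did most genes. Of the 62 genes, 53 passed the filter on low counts, and 39 of these (73.6%) changed, 22 higher (41.5%) and 17 lower (32.1%), beside 68.3% of all genes tested. Of protein-coding genes, 34.1% were higher and 38.0% lower. Only 5 (9.43%) changed at least 2-fold, 4 higher and 1 lower, beside 16.5% of all genes (11.7% higher, 4.85% lower) and 13.4% of protein-coding genes. The median absolute log2 fold change was 0.29 for Rab genes, 0.43 for all genes tested and 0.39 for protein-coding genes. The median signed value was 0.09, beside 0.03 for all genes and -0.02 for protein-coding genes. It was 0.04 without NC replicate 3 and 0.05 without NC replicate 2, siFSCN1 replicate 2 or siFSCN1 replicate 3, and it lay below that of all genes with DESeq2 (0.06 beside 0.11) and with no filter beyond 1 count (0.08 beside 0.13). CPM (counts scaled to the library total, with the TMM factor) of the groups did not overlap for 38 Rab genes (71.7%), beside 71.3% of all genes. The split by direction rested on the scaling: 22 higher and 17 lower with TMM became 28 and 10 with library totals alone and 26 and 11 with upper quartile scaling.

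**Figure D1:**
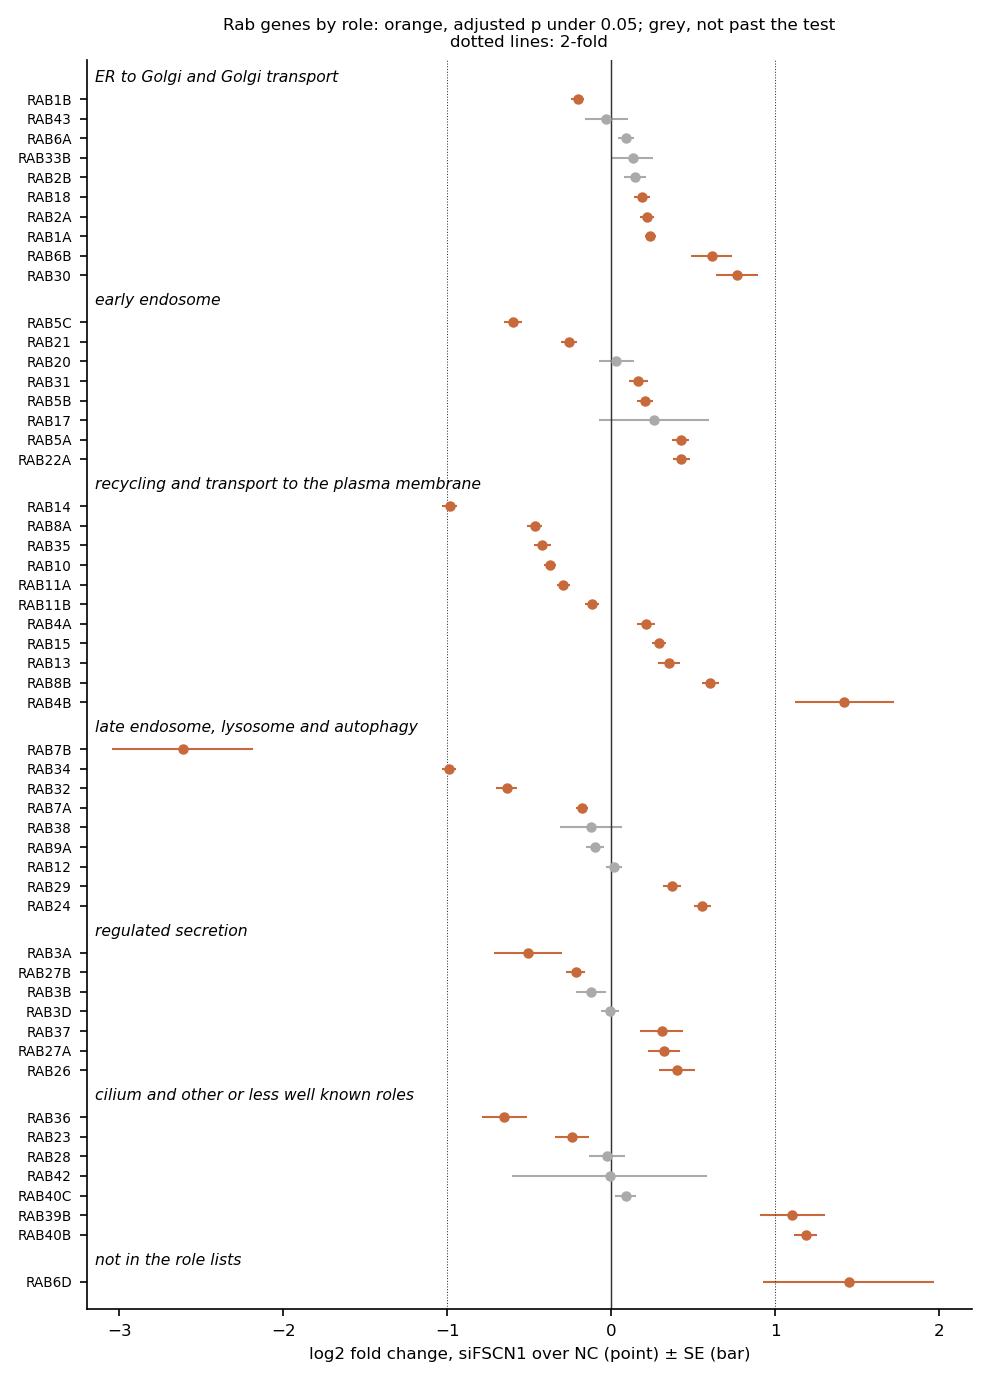
Log2 fold change (siFSCN1 against NC, horizontal axis) of the 53 Rab genes tested, grouped by role, with points for the fitted value and whiskers for its SE. Most genes lie within 1 log2 unit of 0, and RAB7B lies farthest out, at -2.61.

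All 5 of the 2-fold calls fell on members of low abundance. The 28 Rab genes with a mean of at least 5 FPKM in a group gave 10 higher and 11 lower, and 0 of them changed at least 2-fold in the edgeR fit with TMM. RAB34 and RAB14 lay at that limit and passed it with DESeq2, each at -1.02, and in edgeR with RLE scaling (-1.01 and -1.004). The 34 genes under 5 FPKM in both groups, of which 25 were tested, gave 12 higher and 6 lower. Transcript was concentrated in few members, with 48.9% of summed Rab FPKM in the 5 most abundant genes and 67.2% in the 10 most abundant. The 9 genes that did not pass the filter were RAB19, RAB25, RAB33A, RAB39A, RAB40A, RAB41, RAB44, RAB6C and RAB9B, each at or under 0.38 FPKM in every library.

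The most abundant member was RAB10, which acts in exocytic transport to the plasma membrane (chromosome 2, 26034084 to 26137454, GRCh38). It stood at 117.56, 125.73 and 124.23 FPKM in NC and at 104.29, 103.65 and 110.39 FPKM in siFSCN1. All 3 siFSCN1 libraries lay below all NC libraries, with a log2 fold change of -0.37 (SE 0.039, adjusted p = 1.1e-07). With the trend of fold change with abundance removed it was -0.054 (adjusted p = 0.231), and the call was lost. RAB1A and RAB1B, which direct transport from the endoplasmic reticulum to the Golgi, came next with means of 71.7 and 81.1 FPKM over the 6 libraries. RAB1A was at 62.32, 59.98 and 62.81 FPKM in NC and 83.63, 81.32 and 80.24 FPKM in siFSCN1, and RAB1B at 82.16, 80.1 and 84.29 FPKM in NC and 84.04, 80.2 and 75.77 FPKM in siFSCN1. RAB1A rose (log2 fold change 0.24, SE 0.036, adjusted p = 1.2e-05), without overlap of the groups. RAB1B, whose FPKM values overlapped between the groups, had a fitted value of -0.21 (SE 0.041, adjusted p = 2.2e-04) that lost its call with upper quartile scaling, library totals and limma on FPKM, and turned to 0.05 with the trend with abundance removed.

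Among Rabs of the Golgi and the early secretory route, 10 of 13 genes were tested, and 5 rose, 1 fell and 4 did not pass. Here and in the role groups below, counts stand beside 35.1% of all genes higher and 33.2% lower. Many members were named for a 2-fold change or a large rise or fall, so non-overlap of their groups adds no support. CPM of the groups did not overlap for 71.7% of tested Rab genes and 71.3% of all genes. RAB2A, which acts between the endoplasmic reticulum and the Golgi, rose from 14.43, 14.98 and 15.21 FPKM to 19.64, 19.42 and 19.17 FPKM (log2 fold change 0.22, SE 0.040, adjusted p = 1.0e-04). RAB30, a Golgi Rab (chromosome 11, 82973133 to 83071923), was at 0.48, 0.54 and 0.6 FPKM in NC and at 0.86, 1.18 and 1.05 FPKM in siFSCN1. Its rise was 0.77 (SE 0.126, adjusted p = 3.1e-05), and the groups did not overlap. RAB6B, a paralog of the Golgi Rab RAB6A (chromosome 3, 133824235 to 133895882), went from 0.69, 0.68 and 0.77 FPKM to 1.27, 1.03 and 1.38 FPKM, a log2 fold change of 0.61 (SE 0.123, adjusted p = 2.5e-04). The abundant RAB6A itself, at 12.89, 14.31 and 13.11 FPKM in NC and 15.72, 15.95 and 16.42 FPKM in siFSCN1, did not pass (0.09, adjusted p = 0.111), but it passed as higher with library totals (0.28, adjusted p = 8.0e-05), upper quartile scaling, the stricter filter, limma on FPKM and the trend removed, and without NC replicate 2 (0.13, adjusted p = 0.0437). RAB2B, a paralog of RAB2A, was at 4.13, 4.49 and 5.06 FPKM in NC and 5.68, 5.47 and 5.85 FPKM in siFSCN1 and did not pass either (0.15, adjusted p = 0.064), but passed as higher with library totals (0.33, adjusted p = 3.2e-04), upper quartile scaling, the stricter filter, the replicate block (adjusted p = 0.0352) and limma on FPKM, and without NC replicate 3 (0.22, adjusted p = 0.0205).

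Early endosome Rabs gave 4 higher, 2 lower and 2 not past the test, and the RAB5 paralogs, which drive early endosome fusion, went in opposite directions. RAB5C (chromosome 17, 42124978 to 42155044) stood at 33.52, 34.9 and 33.42 FPKM in NC and at 27.7, 24.87 and 22.74 FPKM in siFSCN1. All siFSCN1 libraries were below all NC libraries, at -0.60 on the log2 scale (SE 0.055, adjusted p = 1.9e-08). RAB5A was at 8.47, 8.51 and 8.01 FPKM in NC and 12.26, 12.29 and 13.03 FPKM in siFSCN1, a rise of 0.42 (SE 0.053, adjusted p = 1.1e-06). RAB5B rose less, from 9.02, 8.39 and 8.87 FPKM to 11.33, 10.88 and 11.85 FPKM (0.21, SE 0.048, adjusted p = 9.8e-04). RAB22A, another early endosome Rab (chromosome 20, 58309715 to 58367507), went from 3.12, 3.29 and 3.2 FPKM to 4.83, 4.96 and 4.71 FPKM, a log2 fold change of 0.43 (SE 0.051, adjusted p = 6.3e-07). RAB21, known from integrin traffic, fell by 0.26 on the log2 scale, a call lost with library totals (-0.07, adjusted p = 0.207) and limma on FPKM.

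All 11 tested Rabs of recycling and transport to the plasma membrane changed, 5 higher and 6 lower, beside 68.3% of all genes tested. RAB10, RAB11A and RAB11B, all lower, lost their calls with the trend of fold change with abundance removed. RAB14, which works between the Golgi and endosomes (chromosome 9, 121178133 to 121223014), was at 14.14, 14.58 and 14.36 FPKM in NC and at 8.07, 7.99 and 8.33 FPKM in siFSCN1. It fell to 50.5% of NC (log2 fold change -0.99, SE 0.048, adjusted p = 3.3e-12), just inside the 2-fold limit, and it passed that limit with DESeq2. The gene GSN overlaps RAB14 on the other strand. RAB8A, a Rab of exocytosis and ciliary transport (chromosome 19, 16111889 to 16134234), went from 13.33, 13.32 and 13.72 FPKM to 11.34, 10.86 and 10.54 FPKM, or -0.47 (SE 0.045, adjusted p = 4.3e-08). Its paralog RAB8B (chromosome 15, 63189560 to 63267776) went the other way, from 3.32, 3.67 and 3.47 FPKM to 5.87, 5.8 and 6.17 FPKM, or 0.61 (SE 0.053, adjusted p = 1.1e-08). In both genes the groups did not overlap.

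The recycling endosome paralogs RAB11A and RAB11B moved little. RAB11A was at 27.39, 26.76 and 27.71 FPKM in NC and 25.48, 24.19 and 25.38 FPKM in siFSCN1 (-0.29, SE 0.037, adjusted p = 1.5e-06), and the call was lost with the trend removed (-0.046, adjusted p = 0.288). RAB11B was at 29.9, 28.74 and 28.96 FPKM in NC and 31.41, 29.86 and 29.31 FPKM in siFSCN1. Its FPKM overlapped between the groups, and its fitted -0.12 (adjusted p = 0.0271) turned to 0.07 with library totals as the scale. RAB35, which serves fast recycling, had -0.42, and the recycling Rabs RAB4A and RAB15 had 0.21 and 0.29, as did RAB13, a Rab of tight junctions, with 0.35; all 4 passed the test.

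RAB4B is a recycling Rab with few reads, and the annotated readthrough genes MIA-RAB4B and RAB4B-EGLN2 overlap it on the same strand. How reads in the overlap were counted is not given in the sources used here, and its counts are uncertain. It had 16, 8 and 21 counts in NC and 40, 42 and 54 counts in siFSCN1. The groups were apart, and the log2 fold change was 1.42 (SE 0.302, adjusted p = 4.3e-04). The filter needed 3 libraries, and 2 NC and 3 siFSCN1 libraries reached its limit. RAB4B was thus tested only because of the group in which it was higher.

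Rabs of late endosomes, lysosomes and autophagy gave 2 higher, 4 lower and 3 not past the test. RAB34, known from lysosome positioning and cilium formation (chromosome 17, 28714281 to 28718429), stood at 36.78, 34.94 and 36.57 FPKM in NC and at 21.55, 19.53 and 20.18 FPKM in siFSCN1. Every siFSCN1 library lay below every NC library, at 50.4% of NC (log2 fold change -0.99, SE 0.044, adjusted p = 9.0e-13). RAB32, which acts in the biogenesis of lysosome-related organelles (chromosome 6, 146543833 to 146554953), was at 45.4, 40.48 and 44.3 FPKM in NC and 33.86, 31.96 and 28.22 FPKM in siFSCN1, or -0.64 (SE 0.064, adjusted p = 6.5e-08). RAB24, an atypical Rab linked to autophagy (chromosome 5, 177301198 to 177303744), rose from 10.84, 10.48 and 11.18 FPKM to 18.23, 18.21 and 17.16 FPKM, or 0.55 (SE 0.052, adjusted p = 2.6e-08). RAB29, which recruits the kinase LRRK2, also rose, by 0.37.

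RAB7A, the main Rab of late endosomes, hardly differed in FPKM, with 21.04, 21.87 and 21.23 in NC and 21.3, 21.33 and 20.84 in siFSCN1. The groups overlapped on this scale, and the fitted value was -0.18 (SE 0.037, adjusted p = 3.1e-04), a call lost with library totals and upper quartile scaling. RAB7B, a late endosome Rab that acts in transport to the trans-Golgi (chromosome 1, 205976740 to 206003461), was the only member to fall at least 2-fold. It had 23, 15 and 29 counts in NC and 5, 3 and 4 counts in siFSCN1, which is at most 0.18 FPKM in any library. The groups did not overlap (log2 fold change -2.61, SE 0.430, adjusted p = 3.1e-05), and it passed the filter through its NC libraries alone.

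Rabs of regulated secretion gave 3 higher, 2 lower and 2 not past the test. RAB27A, which docks secretory granules, was at 1.57, 1.58 and 1.53 FPKM in NC and 2.15, 2.35 and 2.05 FPKM in siFSCN1 (0.32, SE 0.096, adjusted p = 0.00643). Its paralog RAB27B was at 4.43, 4.68 and 4.67 FPKM in NC and 4.19, 4.29 and 4.83 FPKM in siFSCN1 (-0.22, SE 0.059, adjusted p = 0.00334), and its FPKM ranges overlapped. The call was lost with library totals (-0.03, adjusted p = 0.693), upper quartile scaling, limma on FPKM and the trend removed. The secretory granule Rabs RAB26 and RAB37 had 0.40 and 0.31, with overlapping CPM in RAB37. RAB37 lost its call with RLE scaling (adjusted p = 0.0576), DESeq2 (0.162), no filter beyond 1 count and the trend removed, and with any of 4 libraries left out. The RAB3 paralogs act on secretory and synaptic vesicles. RAB3A was at 0.79, 1 and 0.88 FPKM in NC and 0.65, 0.61 and 0.84 FPKM in siFSCN1 (-0.51, SE 0.205, adjusted p = 0.0352), a call lost with library totals (-0.32, adjusted p = 0.177), upper quartile scaling, DESeq2 and limma on FPKM, and without NC replicate 2 or 3 or siFSCN1 replicate 1 or 2. RAB3B was at 0.98, 1.14 and 1.04 FPKM in NC and 0.94, 1.17 and 1.15 FPKM in siFSCN1 and did not pass (-0.12, adjusted p = 0.246). RAB3D, the most abundant of the 3, was at 7.44, 6.86 and 6.78 FPKM in NC and 8.32, 7.62 and 7.59 FPKM in siFSCN1 and did not pass (-0.01, adjusted p = 0.911).

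Among the remaining members, RAB40B, which carries a SOCS box and works with a ubiquitin ligase (chromosome 17, 82654973 to 82698698), rose most of those above 1 FPKM. It was at 1.46, 1.32 and 1.42 FPKM in NC and at 3.68, 3.5 and 3.54 FPKM in siFSCN1, 2.27 times the NC level (log2 fold change 1.18, SE 0.070, adjusted p = 4.6e-11). The groups were far apart. Its paralog RAB40C, at 4.06, 4.06 and 4.74 FPKM in NC and 5.36, 4.78 and 5.25 FPKM in siFSCN1, did not pass (0.09, adjusted p = 0.235), but passed as higher with library totals (0.28, adjusted p = 0.00109), upper quartile scaling and limma on FPKM. RAB36, a relative of RAB34 (chromosome 22, 23145366 to 23165663), went from 1.24, 1.23 and 0.98 FPKM to 0.71, 0.77 and 0.96 FPKM, or -0.65 (SE 0.138, adjusted p = 3.9e-04). The call for RAB36 was lost with limma on log2(FPKM + 1) (-0.25, adjusted p = 0.0550). RAB23, a regulator of Hedgehog signalling, had -0.24 (adjusted p = 0.0466), a call lost with library totals (-0.05, adjusted p = 0.683) and with the replicate block (adjusted p = 0.0586), among others.

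RAB39B, a gene mutated in an X-linked intellectual disability with early parkinsonism, had 32, 26 and 48 counts in NC and 91, 86 and 80 counts in siFSCN1. All siFSCN1 libraries were higher (log2 fold change 1.10, SE 0.198, adjusted p = 7.7e-05). RAB6D, a near-copy of RAB6A, had 4, 6 and 2 counts in NC and 11, 11 and 16 counts in siFSCN1. Its log2 fold change of 1.45 (SE 0.522, adjusted p = 0.0204) is uncertain. The study counted uniquely mapped reads, so reads that fit more than 1 copy may be missing. RAB6D passed the filter through siFSCN1 libraries alone.

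**Figure D2:**
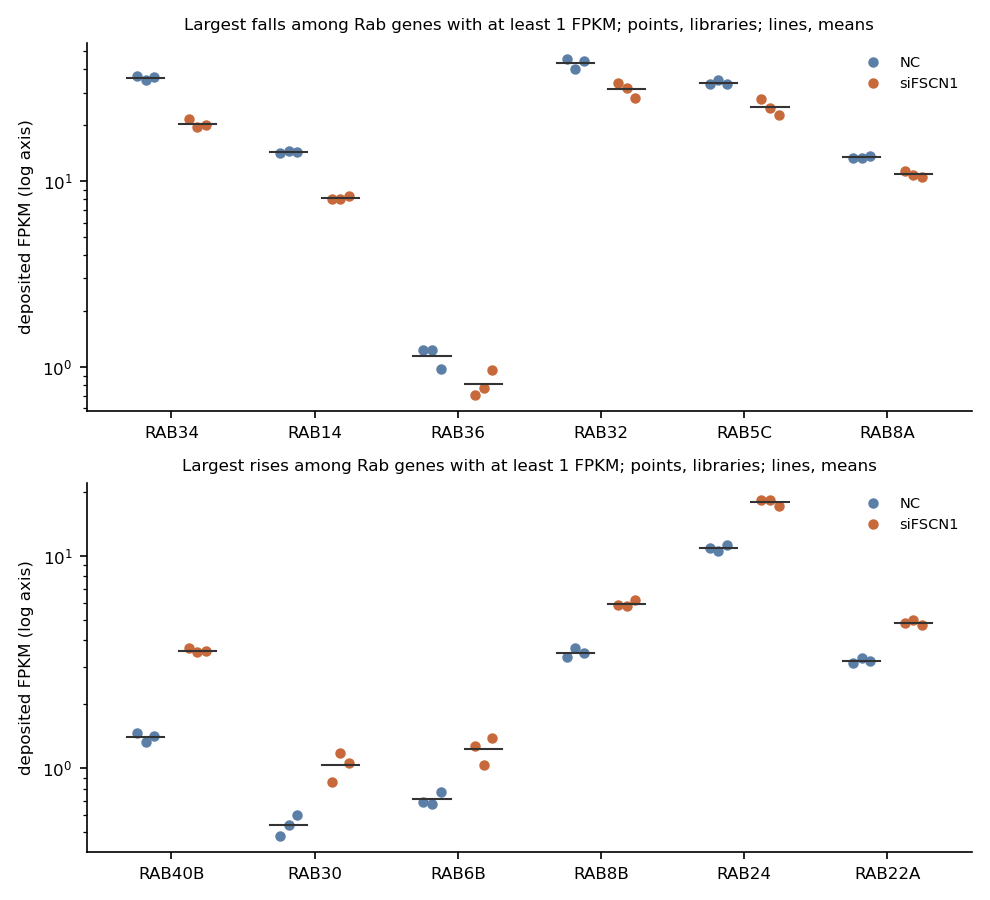
FPKM (log axis) in each of the 3 NC and 3 siFSCN1 libraries for the 6 largest falls and the 6 largest rises among changed Rab genes of at least 1 FPKM; each point is a library. RAB34 falls from between 34.94 and 36.78 to between 19.53 and 21.55, and RAB40B rises from between 1.32 and 1.46 to between 3.5 and 3.68.

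Because paralogs share a route, the share of each in its family's summed FPKM was followed, a measure that no library scaling can move. Of 19 shares in 9 families, 15 had groups that separated completely. In a pair the shares mirror each other, so the 15 are not separate results. In CPM, the groups did not overlap for 71.3% of all genes. Each of the 15 had the smallest exact permutation p that 3 against 3 libraries allow, 0.1 (two-sided). After adjustment over the 19 shares, mirrored ones included, it was 0.127, so none can pass 0.05. RAB5C held 66.5% ± 0.833 of the RAB5 family in NC and 51.2% ± 3.17 in siFSCN1 (SD, n = 3 each). RAB8A held 79.4% ± 0.896 of the RAB8 pair in NC and 64.7% ± 1.47 in siFSCN1. RAB40B went from 24.6% ± 1.65 to 41.0% ± 0.981 of its family.

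In the RAB1 pair, RAB1A held 42.9% ± 0.225 in NC and 50.6% ± 0.798 in siFSCN1. RAB27A held 25.4% ± 0.752 and 33.0% ± 2.90 of the RAB27 pair, a difference of 7.67 percentage points that was 5.28 points when counts were divided by annotated exonic length. RAB11A differed by less, with 48.3% in NC and 45.3% in siFSCN1. RAB2A held 76.6% and 77.4% (exact permutation p = 0.6), and its groups overlapped.

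**Figure D3:**
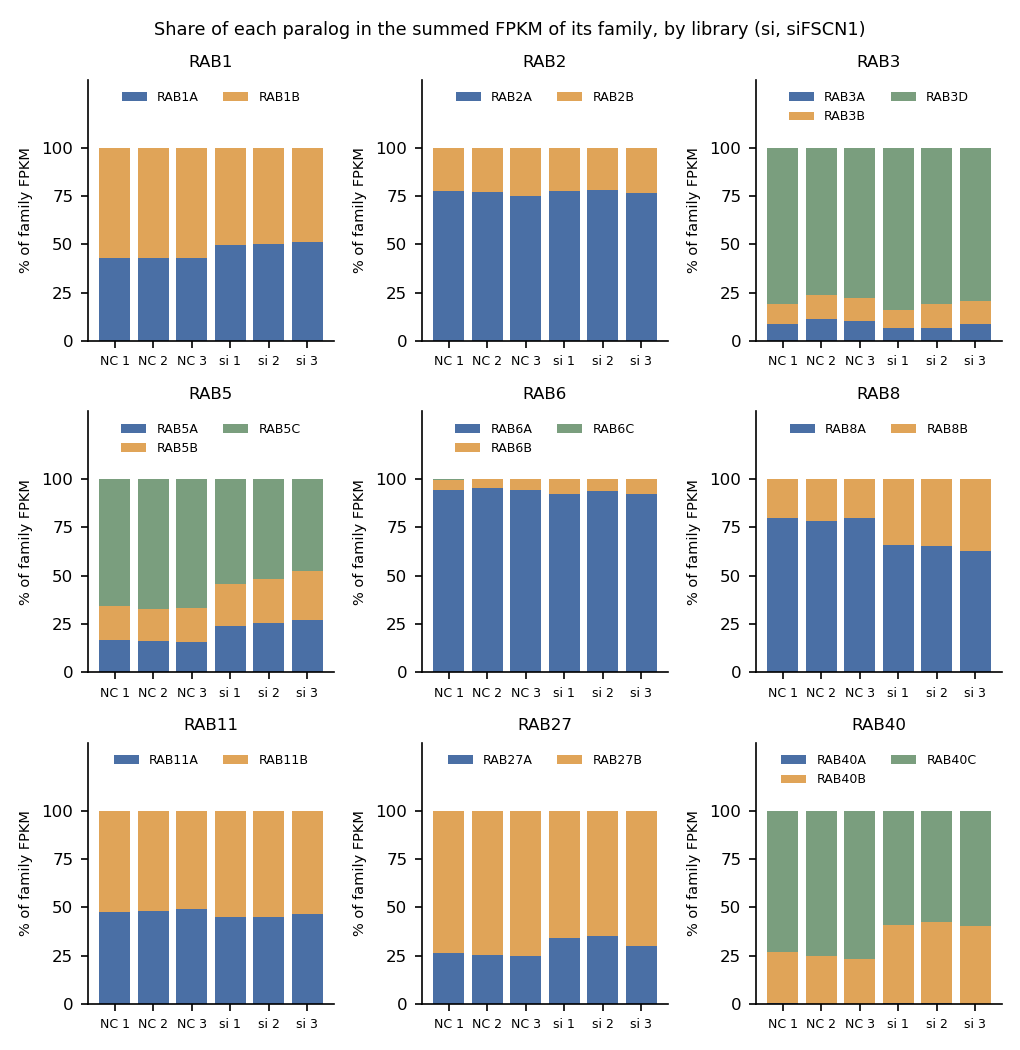
Share of each paralog in the summed FPKM of its family (percent, vertical axis) in NC and siFSCN1, as 1 stacked bar per library for 9 families. RAB5C and RAB8A take smaller parts of their families in siFSCN1, and RAB40B a larger part.

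Summed over all 62 genes, Rab FPKM was 681 ± 7.10 in NC and 687 ± 13.1 in siFSCN1. After division by the TMM factors the sums were 727 ± 8.36 and 644 ± 19.6, so the direction of the total rests on the scaling. The division of that total among role groups does not, but a few abundant genes weigh most in it. Rabs of the Golgi and early secretory route held 27.0% ± 0.245 of it in NC and 30.9% ± 0.412 in siFSCN1, those of late endosomes and lysosomes 20.2% ± 0.419 and 17.5% ± 0.315, and those of recycling 38.5% ± 0.424 and 36.3% ± 0.796. Mean FPKM of RAB1A went from 61.7 in NC to 81.7 in siFSCN1, in a Golgi group that summed to 184 and 212. In the late endosome group, which summed to 137 and 120, RAB34 went from 36.1 to 20.4 and RAB32 from 43.4 to 31.3. RAB7A stayed at 21.4 and 21.2. In the recycling group, which summed to 262 and 249, RAB10 went from 123 to 106.

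**Figure D4:**
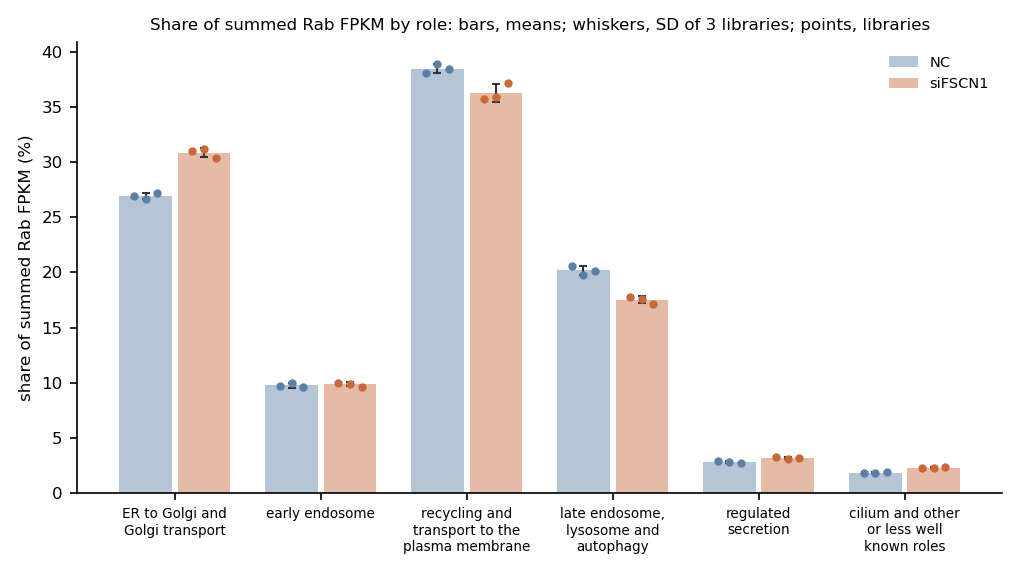
Share of summed Rab FPKM (percent) held by each role group; bars are means, whiskers SD of 3 libraries, points single libraries. The Golgi group stands near 27.0% in NC and 30.9% in siFSCN1, and the late endosome group near 20.2% and 17.5%. A few abundant genes weigh most in these differences.

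The genes that load, extract, activate, inactivate and read Rabs were followed as a list of 120 genes, of which 115 were tested. Of these, 42 were higher (36.5%), 34 lower (29.6%) and 39 did not pass, beside 35.1% and 33.2% of all genes, and 14 changed at least 2-fold (12.2%), beside 16.5%. Of protein-coding genes, 34.1% were higher, 38.0% lower and 13.4% changed at least 2-fold. The 8 genes of prenylation, escort and extraction all changed, 3 higher and 5 lower, beside 68.3% of all genes tested. GDI2, which extracts GDP-bound Rabs from membranes, was at 69.18, 70.6 and 70.51 FPKM in NC and at 40.21, 38.25 and 39.48 FPKM in siFSCN1, a log2 fold change of -1.0005 (SE 0.035, adjusted p = 5.0e-14), at the edge of the 2-fold limit, which it missed with library totals (-0.81). RABGGTA, a subunit of the geranylgeranyl transferase, fell from 4.93, 4.66 and 5.73 FPKM to 3.05, 2.13 and 2.31 FPKM, or -1.20 (SE 0.110, adjusted p = 2.1e-08). The escort protein gene CHML, named after its values were seen, went from 3.6, 4.09 and 4.06 FPKM to 7.42, 8.22 and 8.14 FPKM, or 0.85 (SE 0.060, adjusted p = 5.4e-10).

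Exchange factors gave 7 higher (21.9%) and 7 lower (21.9%) of 32 tested. Here and in the classes below, counts stand beside 35.1% of all genes higher and 33.2% lower. RIN1, an exchange factor for RAB5, went from 1.64, 1.95 and 1.65 FPKM to 0.78, 0.8 and 0.61 FPKM (-1.42, SE 0.127, adjusted p = 1.3e-08). GTPase-activating proteins gave 15 higher (45.5%) and 8 lower (24.2%) of 33. TBC1D9 rose from 1.42, 1.3 and 1.55 FPKM to 4.3, 4.23 and 4.63 FPKM (1.45, SE 0.072, adjusted p = 4.2e-12). TBC1D7, which is also a subunit of the TSC complex, went from 4.44, 4.11 and 4.1 FPKM to 1.76, 1.37 and 1.26 FPKM (-1.69, SE 0.082, adjusted p = 2.8e-12).

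Effectors gave 16 higher (41.0%) and 13 lower (33.3%) of 39. UNC13D, a RAB27 effector that primes granules for release, had the largest fall of the list above 1 FPKM, from 9.68, 9.24 and 9.38 FPKM to 2.77, 2.15 and 2.23 FPKM (-2.15, SE 0.070, adjusted p = 1.8e-14). RAB11FIP1, an effector of RAB11, went from 2.7, 2.69 and 2.7 FPKM to 1.47, 1.45 and 1.55 FPKM (-1.02, SE 0.055, adjusted p = 1.2e-11), and missed 2-fold with library totals (-0.83), upper quartile scaling (-0.90), the stricter filter, limma on FPKM and the trend removed. BICD2, a dynein adaptor that binds RAB6, rose from 1.6, 1.48 and 1.49 FPKM to 4.26, 3.81 and 4.28 FPKM (1.27, SE 0.066, adjusted p = 7.6e-12). In all of these regulators every siFSCN1 library lay outside the NC range. They were named for a 2-fold change, or for CHML after its values were seen, so this adds no support. CPM of the groups did not overlap for 70.4% of tested regulators and 71.3% of all genes. The Rab kinases and phosphatase gave 1 higher and 1 lower of 3.

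**Figure D5:**
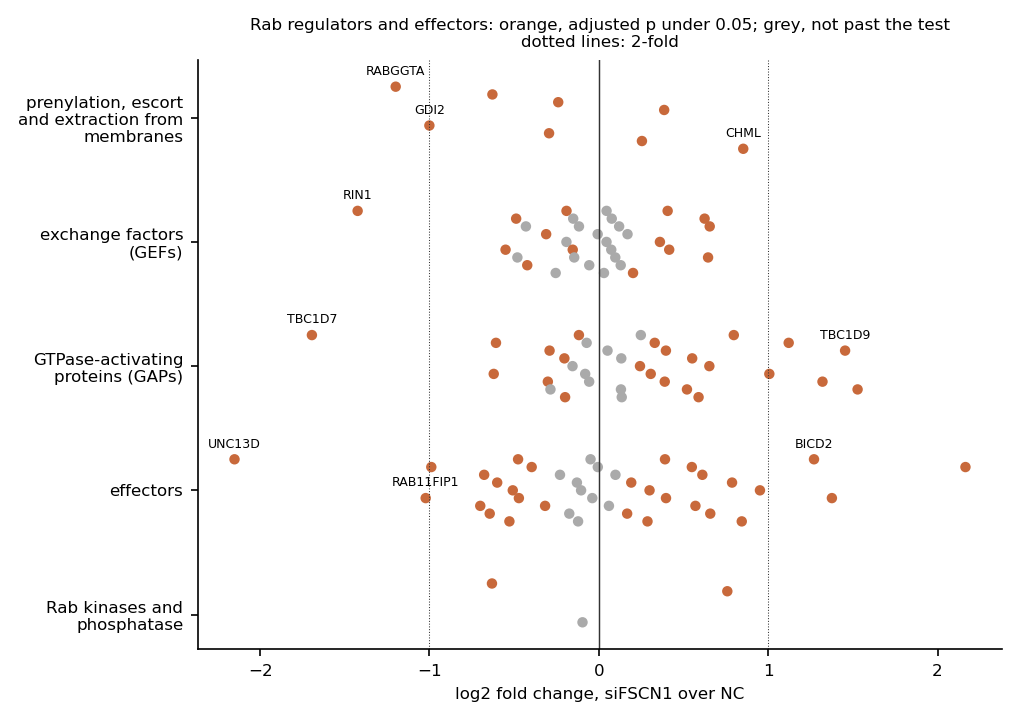
Log2 fold change (siFSCN1 against NC) of Rab regulators by class, with points for fitted values. The 8 genes of prenylation, escort and extraction lie on both sides of 0, with RABGGTA at -1.20 and CHML at 0.85.

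An siRNA can also pair through bases 2 to 8 of its guide strand, the seed, with the 3′ UTRs of other transcripts. The study gives sequences of several FSCN1 siRNAs and names a single one for its RNA-seq. The 7 letters CTCTGGA, which pair with the seed of that siRNA, were searched on the transcript strand of the longest annotated 3′ UTR of each gene. They occurred in 16 of 62 Rab genes (25.8%) and in 3320 of 19246 genes with a 3′ UTR (17.2%). The target site in FSCN1 is shown, with the matches in Rab genes that changed, except RAB37. They hold the letters that pair with the seed, with the 7 letters in capitals and 10 bases on each side (GENCODE on GRCh38, transcript strand).
FSCN1 (chr7:5605787-5605813, plus strand): agccttatttCTCTGGAagcggctaag
RAB7B (chr1:205978820-205978846, minus strand): cagacgcctgCTCTGGAagcccagaaa
RAB34 (chr17:28715276-28715481 across a splice junction, minus strand): gatgtggcatCTCTGGAacataccaag
RAB36 (chr22:23162157-23162183, plus strand): agaccagcacCTCTGGAggacaatgga
RAB23 (chr6:57187064-57187090, minus strand): tgcagttacaCTCTGGAgcttaattta
RAB1B (chr11:66277079-66277105, plus strand): cccactccgtCTCTGGAgcccaccagg
RAB7A (chr3:128823878-128823904, plus strand): ccacccatggCTCTGGAcaatgacaca
RAB26 (chr16:2153430-2153456, plus strand): gagctcagtcCTCTGGAggaagccgtc
RAB29 (chr1:205769540-205769566, minus strand): atcccagctaCTCTGGAgactgaggtg
RAB5B (chr12:55995498-55995524, plus strand): ggaaaatttcCTCTGGAtctgctcttg
RAB37 also rose and held 2 matches, which are not shown. Matches of tested genes that did not pass (RAB17, RAB40C, RAB42 and RAB43) are not shown either. RAB1B, RAB7A and RAB23 lost their calls with library totals and upper quartile scaling. The match in RAB34 is coding sequence in another of its transcripts.

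Of the 14 tested Rab genes with a match, 4 were higher, 6 lower and 4 did not pass, with a median log2 fold change of -0.02. Of the 39 without one, 18 were higher, 11 lower and 10 did not pass, with a median of 0.13. Of the 2539 tested protein-coding genes with a match, 787 were higher, 1108 lower and 644 did not pass, with a median of -0.11. Of the 10785 without one, 3785 were higher, 3948 lower and 3052 did not pass, with a median of -0.0037. Of the 6 largest falls among members of at least 1 FPKM, RAB14, RAB32, RAB5C and RAB8A held no match in the UTR searched and RAB34 and RAB36 held 1 each. RAB7B, with the largest fall of all tested members, also held 1. It stood under 1 FPKM and passed the filter through its NC libraries alone. The 6 largest rises of at least 1 FPKM (RAB40B, RAB30, RAB6B, RAB8B, RAB24 and RAB22A) held no match. Among all tested Rab genes, 26.4% held a match. The part of seed pairing in the Rab values was not tested.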

How the data were processed

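PolyA RNA of 3 NC and 3 siFSCN1 libraries of A549 cells was sequenced. According to the study's methods, the authors used HISAT2 with GRCh38 on trimmed reads and kept those that mapped uniquely, and the submitters' processing notes also name bcl2fastq and TopHat2. The authors deposited 1 table of raw counts per gene and 1 of FPKM, scaled to gene length and library total. Whether counting used strand is not given in the sources used here, so reads of overlapping genes on opposite strands, which 38 of the 62 Rab genes have, may not be separated.

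Counts were filtered with filterByExpr (minimum count 10), scaled by TMM and fitted over all genes with edgeR 4.0.16 (R 4.3.3, glmQLFit and glmQLFTest, no covariate), with Benjamini-Hochberg adjustment. A 2-fold call needed adjusted p under 0.05 and a fold of 2. The scripts were tested on simulated data. FPKM gave levels and paralog shares, the latter with two-sided exact permutation tests. Libraries held 27967301 to 36560919 counts. Values are given by library for Rab genes changed 2-fold, for the 6 largest rises and falls above 1 FPKM, for the 5 most abundant and for paralog families with at least 2 members above 1 FPKM; for regulators, for up to 6 in each direction changed 2-fold above 1 FPKM. Positions and 3′ UTRs came from the GENCODE annotation of GRCh38. The 7 seed letters were set by hand from the sequence that the study's methods give for the siRNA named for its RNA-seq. The members and lists were chosen with earlier results of these data known. Alternatives were other scalings, filters, DESeq2 1.42.0, limma 3.58.1 on FPKM, a replicate block, removal of the trend with abundance, and leaving out each library. Division of FPKM by TMM factors was added after seeing the data.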

Additional observations from a re-analysis of the deposited data

How the results depend on the processing

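Over 16 alternatives, 32 to 39 Rab genes passed adjusted p. The number lower, 17, became 11 with upper quartile scaling, 10 with library totals, 10 and 9 with limma on log2(FPKM + 0.1) and log2(FPKM + 1), and 11 with the abundance trend removed. The 5 Rab genes changed 2-fold became 3 with the stricter filter, 3 and 0 with limma at the 2 pseudocounts and 3 with the trend removed, and 7 with RLE scaling, which added RAB14 and RAB34. The median of 0.09 became 0.21, 0.28 and 0.18 with upper quartile scaling, library totals and limma with 0.1, where that of all genes was 0.15, 0.22 and 0.13, and 0.042 to 0.075 with 1 library left out. The 14 regulators changed 2-fold became 9 and 4 with limma, and the 34 lower became 19 and 20.

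RAB3D, at -0.01, was at 0.11 with upper quartile scaling, 0.18 with library totals, 0.021 with the stricter filter, 0.16 and 0.14 with limma and 0.096 with the trend removed, and between -0.057 and 0.033 with 1 library left out. RAB11B was at 0.069 with library totals, 0.048 and 0.046 with limma and 0.067 with the trend removed, RAB3B at 0.063, 0.038 and 0.022 with library totals and limma, RAB7A at 0.00616 with library totals and 0.067 with the trend removed, and RAB1B at 0.046 with the trend removed. RAB34 and RAB14 also passed 2-fold with DESeq2 (-1.02 each) and, for RAB34 without NC replicate 2 or siFSCN1 replicate 1 and for RAB14 without NC replicate 1, NC replicate 3 or siFSCN1 replicate 3, with 1 library left out. RAB6D lost its call with DESeq2 (adjusted p = 0.119) and without NC replicate 1 (0.053), NC replicate 3 (0.120) or siFSCN1 replicate 3 (0.086). RAB39B was at 0.99 without NC replicate 2. Calls were also lost without NC replicate 1 (RAB11B, RAB23, RAB31), NC replicate 2 (RAB3A, RAB37), NC replicate 3 (RAB3A, RAB23, RAB37), siFSCN1 replicate 1 (RAB3A, RAB23, RAB37), siFSCN1 replicate 2 (RAB3A, RAB11B, RAB27A, RAB37) and siFSCN1 replicate 3 (RAB31), and gained without NC replicate 2 (RAB6A) and NC replicate 3 (RAB2B). Leaving out 1 library gave 35 to 38 Rab genes past adjusted p and 5 to 6 changed 2-fold. The cause of these moves was not tested.

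Replicate numbers did not pair the libraries: deviations of same-numbered libraries correlated at -0.03, 0.04 and -0.08. With the replicate block, 23 Rab genes were higher and 16 lower, with RAB2B gained and RAB23 lost. Depth limits RAB7B, RAB4B and RAB6D, with at most 54 counts in a library.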

Other observations

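Genes related to Rabs but outside the naming rule are given as values, with no test. IFT27, a Rab-like protein of ciliary transport, was at 1.51, 1.39 and 1.57 FPKM in NC and at 3.71, 3.49 and 3.42 FPKM in siFSCN1. RABL2A was at 0.35, 0.46 and 0.46 FPKM in NC and 1.06, 0.92 and 0.89 FPKM in siFSCN1. Its near-copy RABL2B was at 1.32, 1.36 and 1.28 FPKM and 2.15, 2.22 and 1.99 FPKM, and reads that fit both copies may be missing. RABL6 was at 5.65, 5.13 and 5.55 FPKM in NC and 9.28, 8.44 and 8.66 FPKM in siFSCN1. RABL3 was at 1.97, 2.08 and 1.95 FPKM in NC and 2.45, 2.38 and 2.13 FPKM in siFSCN1. In FPKM, which places siFSCN1 higher than the fit does, each of these was higher in every siFSCN1 library. For comparison, CPM of the groups did not overlap for 71.3% of all genes. RAB40AL had 2, 2 and 3 counts in NC and 3, 3 and 5 in siFSCN1. CRACR2A had 14, 28 and 24 counts in NC and 11, 13 and 10 in siFSCN1. RASEF, a large Rab-related protein, was at 1.53, 2.02 and 1.89 FPKM in NC and 1.16, 1.25 and 1.23 FPKM in siFSCN1. RAN, the GTPase of nuclear transport, was at 171.79, 173.1 and 169.48 FPKM in NC and 128.92, 125.16 and 124.7 FPKM in siFSCN1. The processed pseudogene RAB1C, which matched the symbol pattern, had 0 to 2 counts in each library.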
